A study of Homo sapiens with 60 samples.

Results

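The 38 genes described here encode ribosome biogenesis factors: nucleolar proteins and enzymes that make ribosomal RNA and build it into the 2 ribosomal subunits. They were taken from a list of gene symbols and found by matching the Ensembl identifiers of the count table to symbols. All 38 were among the 60675 genes of the table, and all 38 were among the 17129 genes that passed the filter on low counts. By role, 6 are nucleolar chaperones and scaffolds, 3 are core proteins of the box C/D small nucleolar ribonucleoproteins (snoRNPs), 3 of the box H/ACA snoRNPs, 3 are subunits of RNA polymerase I, 12 act in processing of the small subunit and 11 in processing of the large subunit.

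The genes were measured by mRNA sequencing in 60 libraries of A549, an established human non-small cell lung carcinoma line, in 20 groups of 3 libraries, after 24 h. Cells of the vehicle group received DMSO, which the sample labels give as 0.1% and the series text as 2%. The positive control was wortmannin, a phosphatidylinositol 3-kinase inhibitor, at 10 µM. The other 18 groups received hot-water extracts of plants at 3 doses each, called high, medium and low below. Zingiberis Rhizoma Recens, Zingiberis Rhizoma (both ginger rhizome), Pinelliae Tuber and Zizyphi Fructus (jujube) had doses of 500, 100 and 20 µg/mL. The figures mark the extracts ZRR, ZR, PT and ZF in that order, with SR for Scutellariae Radix and CR for Coptidis Rhizoma. Doses were 230, 46 and 9.2 µg/mL for Scutellariae Radix and 130, 26 and 5.2 µg/mL for Coptidis Rhizoma. All groups grew in the same medium with heat-inactivated serum. The labels do not say whether the 3 libraries of a group came from separate cultures, so p-values may measure technical spread only.

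Library totals ran from 17420373 to 36479629 counts, and no 2 libraries held the same values. The keratins KRT8 and KRT18 were abundant in all 60 libraries, at 2030 to 4050 and 1670 to 3120 CPM (a library's counts scaled to a common total). Other epithelial markers were much lower, with KRT19 at 17.3 to 36.3, CDH1 at 19.9 to 35.5 and EPCAM at 3.61 to 6.96 CPM. The blood and fibroblast markers PTPRC, CD3E, HBB and FAP were each below 0.1 CPM, while CD14 was at 0.652 to 3.51 CPM and THY1 at 2.98 to 5.95 CPM. The fibroblast markers LUM, PDGFRB and DCN reached 0.902, 0.403 and 0.144 CPM. The first part of the sample codes differed between groups. It was A1 for vehicle and 1 for wortmannin, which differ by the letter A and not by the number. The 2 ginger rhizomes shared another number, Pinelliae and Scutellariae shared another, and Coptidis and Zizyphi shared another. The sources used here do not say what the number or the letter marks. Code and treatment cannot be told apart in any comparison with vehicle, so high against low dose and extracts under 1 number are given beside those comparisons. Libraries also differed in how counts depended on transcript length. The fitted slope (log2 CPM per doubling of length, minus the mean of the libraries) ran from −0.17 to 0.091, with vehicle at 0.019, 0.068 and 0.091, wortmannin at 0.057, 0.08 and 0.082, and 5 extract libraries at the low end. The slope followed the main axis of variation among the 60 libraries. Its absolute correlation with the first principal component of the most variable genes was 0.961.

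Ribosome production starts in the nucleolus, where RNA polymerase I transcribes a long precursor RNA. Box C/D snoRNPs guide its methylation and box H/ACA snoRNPs its pseudouridylation, while processing factors fold, cut and export the small and large subunits. Many of these genes are known targets of the transcription factor MYC, and ribosome production is known to follow growth signalling through phosphatidylinositol 3-kinase and mTOR, which makes it a common readout of growth in cancer cells.

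MYC and its partner MAX are known to bind the E-box CACGTG, so the promoters of the members were searched for these letters, which read the same on both strands. RefSeq start sites (GRCh38.p14) were found for 31 of the 38 genes, each with a window from 250 bases before to 50 after the start. CACGTG was in 12 of the 31 (38.7%), against 7.3% of 35116 promoters of the same length and 9.9% of the 11737 promoters of genes tested here. In 11 of the 31 (35.5%) it lay within 50 bases of the start, against 2.8% of all promoters. A match describes the letters and is no measurement of binding. The 8 windows of 30 bases below, with the E-box in capitals, are shown because they hold the letters nearest to the start, in genes of 3 of the roles.
MRTO4, chr1:19251807-19251836, plus strand: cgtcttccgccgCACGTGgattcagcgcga
NOP14, chr4:2963374-2963403, minus strand: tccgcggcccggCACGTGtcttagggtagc
PES1, chr22:30591880-30591909, minus strand: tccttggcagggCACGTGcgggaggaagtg
FBL, chr19:39846356-39846385, minus strand: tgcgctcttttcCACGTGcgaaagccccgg
RRP9, chr3:51941892-51941921, minus strand: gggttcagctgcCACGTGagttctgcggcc
UTP20, chr12:101280083-101280112, plus strand: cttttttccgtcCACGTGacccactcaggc
NAT10, chr11:34105602-34105631, plus strand: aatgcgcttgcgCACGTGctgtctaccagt
WDR43, chr2:28894658-28894687, plus strand: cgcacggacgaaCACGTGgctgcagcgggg

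In vehicle-treated cells the members were well expressed, but unevenly. Per kilobase of the longest transcript, NPM1 (nucleophosmin, a histone and ribosomal protein chaperone of the outer nucleolus) had the highest level, at 1017 CPM per kb. NCL (nucleolin, which binds the precursor RNA) followed at 297.6 CPM per kb and FBL (fibrillarin, the box C/D methyltransferase) at 232.5 CPM per kb. The lowest per-length levels were those of the RNA helicase DDX10, at 6.735 CPM per kb, the large-subunit factor WDR12, at 7.489 CPM per kb, and the small-subunit factor UTP15, at 9.805 CPM per kb. The coefficient of variation over the 3 vehicle libraries had a median of 3% over the members and a maximum of 10.7%.

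Wortmannin gave the lowest group mean of the 20 groups for 33 of the 38 members. The exceptions were HEATR1 and POLR1A, lowest in low-dose Coptidis, MYBBP1A and UTP20, lowest in high-dose Scutellariae, and RRP1B, lowest in high-dose Coptidis. The highest mean lay in high-dose Coptidis for 12 members, more than in any other group. The ratio of the highest to the lowest group mean ran from 1.18 for WDR12 to 1.76 for DDX10, whose mean was 65.17 CPM in high-dose Coptidis and 37.08 CPM in wortmannin.

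**Figure D1:**
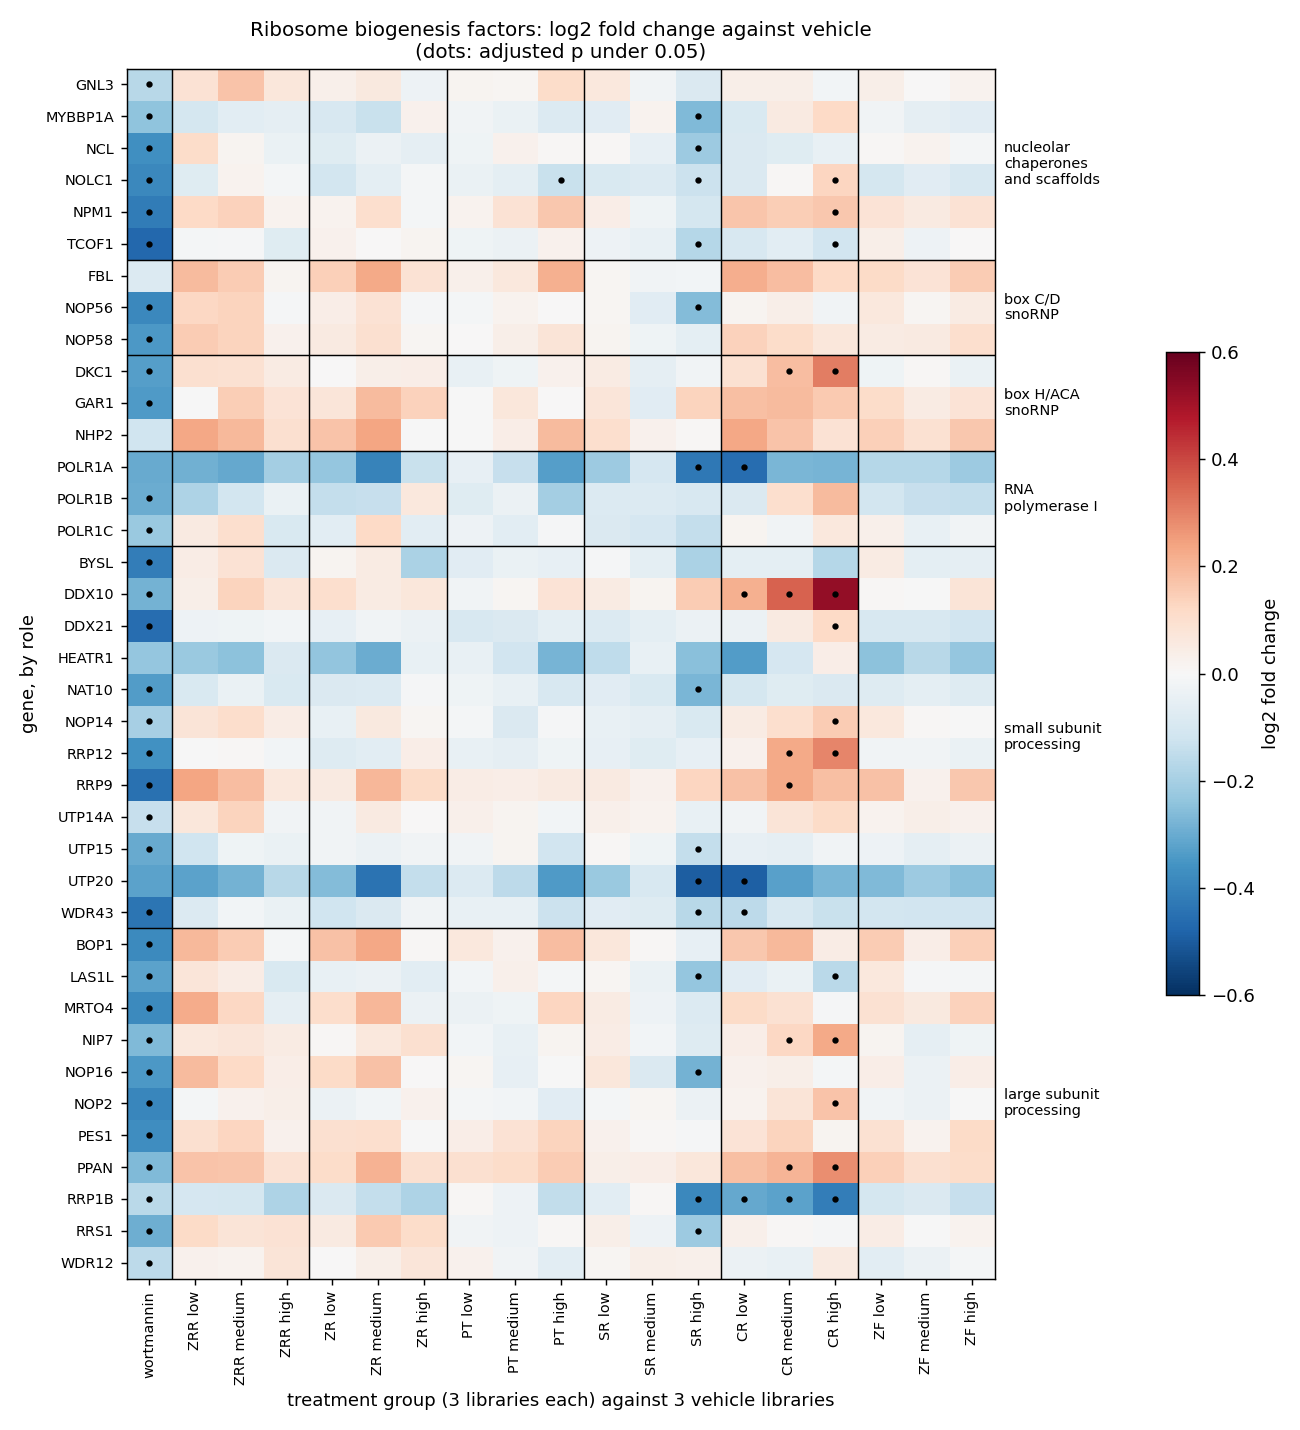
Log2 fold change against vehicle of the 38 members (rows, by role) in the 19 treatment groups (columns), with a dot where edgeR's adjusted p was under 0.05. The wortmannin column is blue in every row, the high-dose Scutellariae column is mostly blue, and the 3 Coptidis columns hold both colours.

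Wortmannin against vehicle asks what a known kinase inhibitor does to these genes in the same system. Of the 38 members, 33 fell (86.8%) and none rose, with adjusted p under 0.05 in edgeR's quasi-likelihood test over all 17129 genes; here and below, a gene that passed this threshold is said to have risen or fallen. Over all genes 25.3% passed, 13.4% higher and 11.9% lower. The median log2 fold change was −0.33 over the members (range −0.47 to −0.08), where all tested genes had 0.01. In 37 of the 38 members every wortmannin library lay below every vehicle library, which held for 21.2% of all genes. Summed markers of blood cells were at 3.36 to 3.58 CPM in wortmannin and 1.49 to 2.22 CPM in vehicle, of fibroblasts at 5.99 to 6.25 and 4.35 to 5.06 CPM, of endothelium at 0.437 to 0.47 and 0.103 to 0.332 CPM, and of epithelium at 5690 to 6440 and 5740 to 5860 CPM. PTPRC and CD3E stayed below 0.1 CPM, and the part of these shifts in the members' values was not tested. In bulk RNA, fewer cells of a type and less RNA per cell cannot be told apart.

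The falls reached every role. All 6 chaperones and scaffolds fell (median −0.38), as did 11 of 11 large-subunit factors (median −0.32), 10 of 12 small-subunit factors (median −0.33), and 2 of 3 members in each of the C/D, H/ACA and polymerase I groups. Of the members with the E-box in their promoter 10 of 12 fell (median −0.36), as did 16 of the 19 without (median −0.30). Since 33 of the 38 members fell, these counts had little room to differ. A part of MYC in the falls was not tested.

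Among the chaperones, TCOF1 (treacle, which links RNA polymerase I to early processing) was at 185.8, 181.3 and 174.8 CPM in vehicle and at 134, 127.6 and 129.6 CPM in wortmannin. No wortmannin library came near the vehicle range, and the log2 fold change was −0.47 ± 0.04 (SE; n = 3 libraries a group here and below; edgeR adjusted p = 1.27e-12). Its nucleolar partner NOLC1, which binds snoRNPs, went from 297, 280.5 and 278.1 CPM to 214, 222.3 and 217.7 CPM, again without overlap (log2 fold change −0.39 ± 0.04; edgeR adjusted p = 2.23e-12). NCL was at 1230, 1205 and 1166 CPM in vehicle and at 986.4, 910.3 and 896.6 CPM in wortmannin (log2 fold change −0.37 ± 0.04; edgeR adjusted p = 1.93e-09). NPM1, the most abundant member, was at 1771, 1764 and 1829 CPM against 1396, 1338 and 1279 CPM, so that its highest wortmannin library lay well under its lowest vehicle library (log2 fold change −0.42 ± 0.06; edgeR adjusted p = 5.16e-07). The remaining 2 of this group, the Pol I repressor MYBBP1A (−0.24) and the GTPase nucleostemin GNL3 (−0.17), had smaller falls.

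The smallest p of all members belonged to DDX21, an RNA helicase that binds precursor RNA and snoRNAs. It was at 461.8, 449.7 and 439.9 CPM in vehicle and at 335.1, 325.6 and 322.2 CPM in wortmannin, with a change of −0.46 ± 0.04 on the log2 scale (edgeR adjusted p = 1.26e-14). The replicates of each group were close together and the groups far apart. NOP2, which methylates a cytosine of the large-subunit RNA, was at 156.7, 152.1 and 157.2 CPM against 119, 117.4 and 119.2 CPM (log2 fold change −0.39 ± 0.04; edgeR adjusted p = 2.21e-10). Of the trimeric PES1, BOP1 and WDR12 complex, needed for large-subunit processing, BOP1 fell by 0.38 ± 0.09 on the log2 scale (edgeR adjusted p = 0.00133), PES1 by 0.38 and WDR12 by 0.16. NOP16, a large-subunit factor, was at 48.49, 50 and 48.55 CPM in vehicle and 39.59, 38.85 and 37.38 CPM in wortmannin, which did not overlap (log2 fold change −0.35 ± 0.09; edgeR adjusted p = 0.0042).

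The snoRNP proteins did not move alike. DKC1, the pseudouridine synthase of the H/ACA snoRNPs, was at 195.8, 190.1 and 195 CPM in vehicle and 159.5, 154.9 and 148.2 CPM in wortmannin, with no overlap (log2 fold change −0.33 ± 0.05; edgeR adjusted p = 5.88e-07). Its partner GAR1 fell by 0.34. NHP2, the third H/ACA protein measured, was at 124.1, 126.2 and 134.4 CPM against 122.6, 116 and 115.3 CPM (log2 fold change −0.12; edgeR adjusted p = 0.533). On the C/D side NOP56 and NOP58 fell, by 0.39 and 0.34, while FBL had 324.5, 323.9 and 328.1 CPM in vehicle and 328.8, 302.8 and 289.5 CPM in wortmannin. FBL was the one member whose groups overlapped, and its log2 fold change was −0.08 with a 95% interval from −0.26 to 0.09 (edgeR adjusted p = 0.522). 

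The other 3 members that did not pass had the 3 longest transcripts of the list, at 8447 to 12749 bases. POLR1A, the largest polymerase I subunit, was at 247, 224.3 and 199.1 CPM in vehicle and 182.9, 173.1 and 188.1 CPM in wortmannin (log2 fold change −0.30; edgeR adjusted p = 0.149). UTP20 (−0.32; edgeR adjusted p = 0.126) and HEATR1, which acts in both polymerase I transcription and small-subunit assembly (−0.23; edgeR adjusted p = 0.178), were alike in that vehicle values spread widely while the groups did not overlap. With a length-slope term added, all 3 passed (edgeR adjusted p = 2.74e-13 for POLR1A, 6.16e-10 for UTP20 and 6.53e-12 for HEATR1), NHP2 passed (adjusted p = 0.0368) and 37 members fell, against 19.9% of all genes lower. The polymerase I subunit POLR1B fell by 0.30 ± 0.09 without that term (edgeR adjusted p = 0.00767), and POLR1C by 0.22 (edgeR adjusted p = 0.0287).

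**Figure D2:**
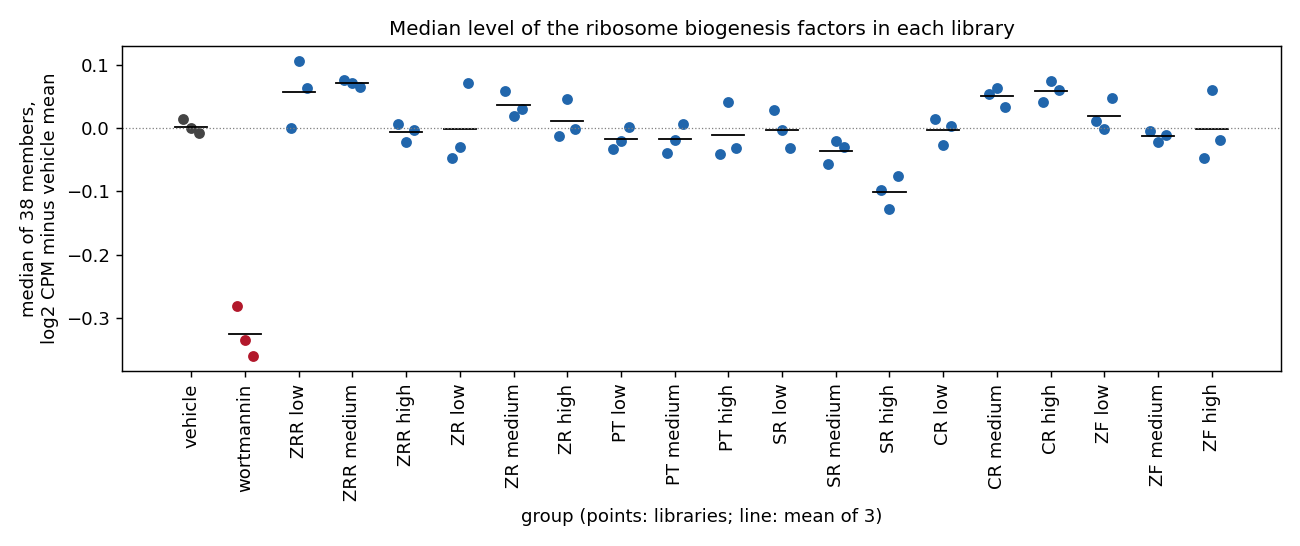
Median over the 38 members of log2 CPM minus the vehicle mean, 1 point a library, in the 20 groups. The 3 wortmannin libraries sit at −0.281 to −0.361, the high-dose Scutellariae libraries at −0.075 to −0.128, and all other extract libraries between −0.056 and 0.107.

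In high-dose Scutellariae Radix the members' median in each of the 3 libraries lay below that of every other extract library. Against vehicle, 14 of 38 members fell (36.8%) and none rose, where 23.9% of all genes passed, 13% higher and 10.9% lower. The members' median log2 fold change was −0.10 (range −0.50 to 0.15), beside 0.01 for all tested genes. By role, 4 of 6 chaperones fell, 4 of 12 small-subunit factors, 4 of 11 large-subunit factors, 1 of 3 C/D proteins and 1 of 3 polymerase I subunits, but none of the 3 H/ACA proteins. Without vehicle replicate 1 the count was 8, without high-dose replicate 3 it was 9, and with a length-slope term it was 25 (16% of all genes lower).

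Against its own low dose, which shares the first code number, high-dose Scutellariae had 11 members that fell (28.9%) and none that rose, beside 20.4% of all genes passing and 9.36% lower. The members' median was −0.10, that of all genes 0.00, and with a length-slope term 20 members fell (15.4% of all genes lower). Without low-dose replicate 2 the count was 7. Against high-dose Pinelliae, under the same code number, 12 members fell (31.6%) and none rose, beside 21.5% of all genes passing and 10.1% lower. With a length-slope term 18 fell and 2 rose against Pinelliae (16.3% of all genes each way). The low-to-high change was lower than that of Pinelliae for 7 members by an interaction term (11.3% of all genes passed, 5.12% lower), or 3 without high-dose Pinelliae replicate 2 and 14 with a length-slope term (9.91% of all genes lower). The 3 comparisons share the high-dose libraries, and 9 members fell in each: LAS1L, MYBBP1A, NAT10, NCL, NOP16, NOP56, RRP1B, RRS1 and TCOF1. The share of all genes that fell in all 3 was not counted.

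RRP1B, a nucleolar protein that brings protein phosphatase 1 to the nucleolus, led the comparison with vehicle. It was at 110.8, 107.9 and 103.7 CPM in vehicle, 97.49, 107.3 and 103.6 CPM at low-dose Scutellariae, and 80.14, 87.89 and 78.78 CPM at the high dose. The high dose lay below both other groups without overlap (log2 fold change against vehicle −0.39 ± 0.06, edgeR adjusted p = 3.55e-06; against low dose −0.32, edgeR adjusted p = 9.07e-05). LAS1L, needed to cut the spacer next to the large-subunit RNA, was at 102.5, 105.3 and 103.9 CPM in vehicle, 105.4, 104.7 and 103.7 CPM at low dose and 91.26, 84.82 and 89.09 CPM at high dose. Here vehicle and low dose were at one level and the high dose clearly below it (−0.23 ± 0.04, edgeR adjusted p = 7.03e-06 against vehicle; −0.24, edgeR adjusted p = 3.73e-06 against low dose).

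NAT10, which acetylates the small-subunit RNA, was at 112.6, 109.6 and 105.7 CPM in vehicle, at 104.3, 105.2 and 103.6 CPM at low dose and at 89.38, 92.56 and 89.75 CPM at high dose. All low-dose libraries lay just under the lowest vehicle library, with no call, and high dose was below both (−0.27 ± 0.05, edgeR adjusted p = 2.92e-05 against vehicle; −0.20, edgeR adjusted p = 0.00167 against low dose). NCL was at 1242, 1179 and 1194 CPM at low dose, 1143, 1147 and 1197 CPM at medium dose and 1048, 1040 and 1008 CPM at high dose. The medium dose overlapped the low dose, and the high dose overlapped neither (−0.22 ± 0.04, edgeR adjusted p = 6.97e-05 against vehicle; −0.22, edgeR adjusted p = 5.45e-05 against low dose). NOP56, a C/D core protein, was at 372.9, 343.4 and 350.5 CPM at low dose and 295, 288.7 and 300.2 CPM at high dose, with log2 fold changes of −0.26 against vehicle and −0.27 against low dose (edgeR adjusted p = 8.74e-05 and 5.64e-05). NOP16, at 42.21, 37.98 and 40.54 CPM at high dose, was below all vehicle and low-dose libraries too (−0.28 ± 0.09, edgeR adjusted p = 0.0208 against vehicle).

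The H/ACA proteins had a median log2 fold change against vehicle of 0.005 in high-dose Scutellariae. Members of the panel with no call there were DKC1 (−0.02; edgeR adjusted p = 0.829), FBL (−0.02; 0.92), BOP1 (−0.05; 0.754), POLR1B (−0.10; 0.463), NPM1 (−0.11; 0.218) and HEATR1 (−0.25; 0.139). POLR1A fell by 0.43 ± 0.15 on the log2 scale against vehicle (edgeR adjusted p = 0.0347), but not against the low dose (−0.21; edgeR adjusted p = 0.388). NPM1 and FBL fell against high-dose Pinelliae (−0.27, edgeR adjusted p = 0.000815; −0.23, edgeR adjusted p = 0.0464) and not against vehicle or low dose. At medium and low dose of Scutellariae, edgeR called 0 members against vehicle, with 1 and 2 at an unadjusted p under 0.05 and 0 by DESeq2. All genes passed at 0% and 0.00584% there. Medium against low dose of Scutellariae also gave 0 in edgeR, with 1 at an unadjusted p under 0.05 and 0 by DESeq2 (0.00584% of all genes).

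Set directly against high-dose Scutellariae, wortmannin was lower for 22 members (57.9%) and higher for 1 (2.63%), beside 32.1% of all genes passing, 15.8% higher and 16.3% lower. The higher one was RRP1B, by 0.22 (edgeR adjusted p = 0.00453), which was at 101.7, 93.34 and 92.77 CPM in wortmannin. DDX21 had −0.42 (edgeR adjusted p = 4.32e-14), the U3 snoRNP protein RRP9 −0.58, NPM1 −0.31, TCOF1 −0.30 and NCL −0.15 (edgeR adjusted p = 0.00477). POLR1A (0.13) and HEATR1 (0.02) had no call between these groups. These groups carry different code numbers.

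**Figure D3:**
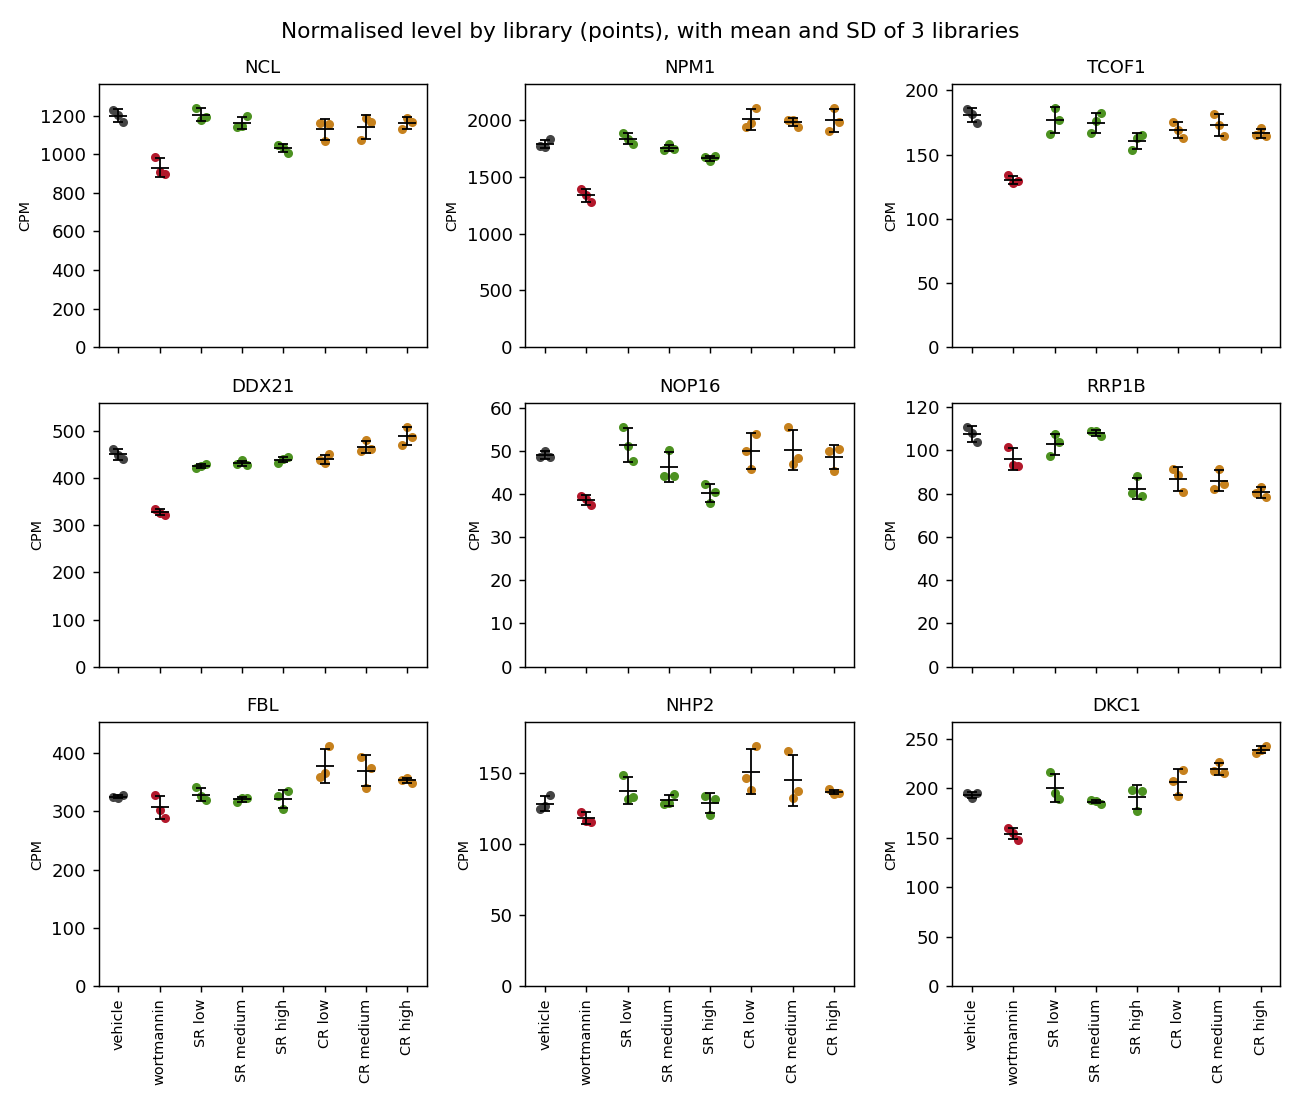
CPM of NCL, NPM1, TCOF1, DDX21, NOP16, RRP1B, FBL, NHP2 and DKC1 in each library (points, with mean ± SD) of vehicle, wortmannin and the doses of Scutellariae and Coptidis. Wortmannin lies below vehicle without overlap for all of these but FBL, RRP1B is lowest in high-dose Scutellariae and Coptidis, and DKC1 is highest in high-dose Coptidis.

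Coptidis Rhizoma moved members in both directions. At high dose against vehicle, 10 of 38 rose (26.3%) and 3 fell (7.89%), where 35.1% of all genes passed, 18.5% higher and 16.7% lower, so the share of members called (13 of 38) was near the background. The members' median was 0.06 (range −0.41 to 0.53) and that of all genes 0.01. With a length-slope term 15 rose and 8 fell, beside 23.8% and 22% of all genes. Without the 5 libraries of lowest slope, or with only the compared libraries fitted, the total was 22. Here and elsewhere, counts from DESeq2 and from fits that drop libraries, use no filter or take only the compared libraries have no share of all genes beside them. Such counts do not show whether the members moved more than other genes. The summed epithelial markers were at 3770 to 3790 CPM in high-dose Coptidis, 4750 to 5250 in medium, 5500 to 5990 in low and 5740 to 5860 in vehicle, and their part in the members' values was not tested. At medium dose 6 rose (15.8%) and 1 fell (2.63%), beside 23.2% of all genes passing, 12.1% higher and 11.1% lower, and at low dose 1 rose (2.63%) and 4 fell (10.5%), beside 17.7% passing, 8.51% higher and 9.15% lower. The medium-dose total of 7 was 4 without vehicle replicate 1 and 4 without vehicle replicate 2, 14 without the 5 libraries of lowest slope and 12 with only the compared libraries. At medium dose DKC1 rose (0.18; edgeR adjusted p = 0.00336), and of the other abundant members NCL was at −0.07, NPM1 at 0.15 and FBL at 0.18 with no call. The low-dose total of 5 was 1 without vehicle replicate 1, vehicle replicate 2 or low-dose replicate 3, and 3 without low-dose replicate 2.

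High-dose against low-dose Coptidis, within 1 code number, had 11 members that rose (28.9%) and none that fell, beside 25.4% of all genes passing, 13.1% higher and 12.3% lower. Small-subunit factors made up 5 of the 11, with 2 chaperones, 2 large-subunit factors, 1 H/ACA protein and 1 polymerase I subunit. The members' median was 0.03, with 22 positive and 16 negative values. Without low-dose replicate 3 the count was 7, and with a length-slope term 15 rose and 1 fell (15.9% and 15.1% of all genes). Against high-dose Zizyphi, under the same number, 10 members rose and 3 fell, beside 34% of all genes passing, 17.4% higher and 16.6% lower; with only the compared libraries fitted 8 were called. At medium dose 7 rose and 1 fell against Zizyphi (17.2% of all genes, 8.79% and 8.44%), or 5 in all without medium-dose Coptidis replicate 2, and at low dose none rose and 2 fell (5.11% of all genes, 2.44% lower), both of which were lost without the 5 libraries of lowest slope or with only the compared libraries fitted. The change from low to high dose was larger than that of Zizyphi for 5 members by the interaction term, and smaller for none. These 5 were 13.2% of the members, near the 11.4% of all genes that passed (5.76% larger); with only the compared libraries fitted the count was 0, and with a length-slope term 12 were larger and 1 smaller (9.28% and 9.33% of all genes). The comparisons of high-dose Coptidis with vehicle, low dose and Zizyphi share its libraries, and 7 members rose in each: DDX10, DDX21, DKC1, NIP7, NOLC1, NOP2 and RRP12. How many of all genes rose in each of these comparisons was not counted.

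DDX10, an RNA helicase of small-subunit processing, had the largest change of any member in an extract. It was at 44.83, 46.27 and 44.42 CPM in vehicle, at 48.87, 52.5 and 55.71 CPM in low-dose, 60.81, 56.41 and 56.08 CPM in medium-dose and 64.33, 63.51 and 67.67 CPM in high-dose Coptidis. Each dose lay above the one below it without overlap, and the log2 fold change of high dose was 0.53 ± 0.07 against vehicle (edgeR adjusted p = 2.47e-08) and 0.32 against low dose (edgeR adjusted p = 0.000461). RRP12, which takes part in maturation and export of pre-ribosomes, was at 116.1, 107.5 and 106.8 CPM in vehicle, 114.4, 106.6 and 115.6 CPM in low, 128.8, 130.4 and 127.1 CPM in medium and 131.7, 136.6 and 137.2 CPM in high dose. Low dose overlapped vehicle while medium and high dose were above it. Its log2 fold change at high dose was 0.29 ± 0.04 against vehicle (edgeR adjusted p = 4.06e-07) and 0.27 against low dose (edgeR adjusted p = 5.22e-06).

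DKC1 was at 207.9, 192.4 and 219.1 CPM in low-dose, 218, 226.5 and 215.3 CPM in medium-dose and 236.1, 238.6 and 242.8 CPM in high-dose Coptidis. The high dose lay above every vehicle, low-dose and medium-dose library (0.30 ± 0.05, edgeR adjusted p = 9.81e-07 against vehicle; 0.21, edgeR adjusted p = 0.000602 against low dose). NIP7, a large-subunit processing factor, was at 77.15, 75.96 and 79.07 CPM in vehicle and 88.51, 90.43 and 92.95 CPM at high dose, without overlap (0.23 ± 0.05; edgeR adjusted p = 0.000109). NOLC1 was at 271.1, 269.9 and 264.4 CPM in low dose and 300.4, 322.7 and 312 CPM in high dose, with a change of 0.13 against vehicle (edgeR adjusted p = 0.00274) and of 0.21 against low dose (edgeR adjusted p = 3.28e-06). DDX21, at 471.2, 508.9 and 487.2 CPM in high dose, rose by 0.12 against vehicle (edgeR adjusted p = 0.0053) and 0.15 against low dose (edgeR adjusted p = 0.000669).

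RRP1B went the other way at all 3 doses. It was at 91.23, 88.47 and 80.66 CPM in low-dose, 82.02, 91.42 and 84.55 CPM in medium-dose and 80.45, 83.22 and 78.26 CPM in high-dose Coptidis, all below the lowest vehicle library (103.7 CPM). All libraries of wortmannin and of the high dose of every other extract also lay below it, with high-dose Zizyphi at 87.77 to 103.2 CPM. In Coptidis the log2 fold change of RRP1B against vehicle was −0.31 at low, −0.32 at medium and −0.41 ± 0.06 at high dose (edgeR adjusted p = 0.000457, 8.45e-05 and 3.62e-07). Against Zizyphi at the matched rank of dose it was −0.20, −0.24 and −0.27, and passed each time (edgeR adjusted p = 0.04 at low and 0.00037 at high dose). The low-dose call against Zizyphi was lost without low-dose Coptidis replicate 2 or 3, or without low-dose Zizyphi replicate 1 or 2. The doses in µg/mL differ between these extracts. LAS1L (−0.16; edgeR adjusted p = 0.000647) and TCOF1 (−0.12; edgeR adjusted p = 0.0237) fell at high dose against vehicle, and neither fell against low dose.

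Values of the polymerase I subunits and the longest members moved with the length term. POLR1B was at 70.09, 67.06 and 60.53 CPM in low and 78.62, 81.02 and 79.5 CPM in high-dose Coptidis (0.27, edgeR adjusted p = 0.0137; 0.13 with the length slope), and HEATR1 was at 141.5, 142.6 and 115.5 CPM in low and 165.8, 176.7 and 176.1 CPM in high dose (0.38, edgeR adjusted p = 0.0201; 0.15 with the slope). Low-dose replicate 3, one of the 5 libraries at the low end of the slope, was the lowest for both. In low dose against vehicle, UTP20 (−0.49; edgeR adjusted p = 0.0245) and POLR1A (−0.46; edgeR adjusted p = 0.0324) fell, and with the slope they were at −0.10 and −0.06 (edgeR adjusted p = 0.193 and 0.311). POLR1A at high dose had −0.28 against vehicle (edgeR adjusted p = 0.153), which with the slope was −0.15 (edgeR adjusted p = 0.000221).

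Several abundant members had no call against low dose in Coptidis. NCL had a log2 fold change of −0.05 at high dose against vehicle (edgeR adjusted p = 0.43) and 0.04 against low dose. NPM1 rose against vehicle, by 0.16 (edgeR adjusted p = 0.0348), at 1904, 2106 and 1984 CPM, but was at −0.01 against low dose. FBL (0.12; edgeR adjusted p = 0.29), BOP1 (0.04; 0.754) and NOP16 (−0.01; 0.931) had no call against vehicle either. Wortmannin against high-dose Coptidis was lower for 32 members (84.2%) and higher for 1, RRP1B (0.25; edgeR adjusted p = 0.000932), beside 40% of all genes passing, 20.2% higher and 19.9% lower.

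**Figure D4:**
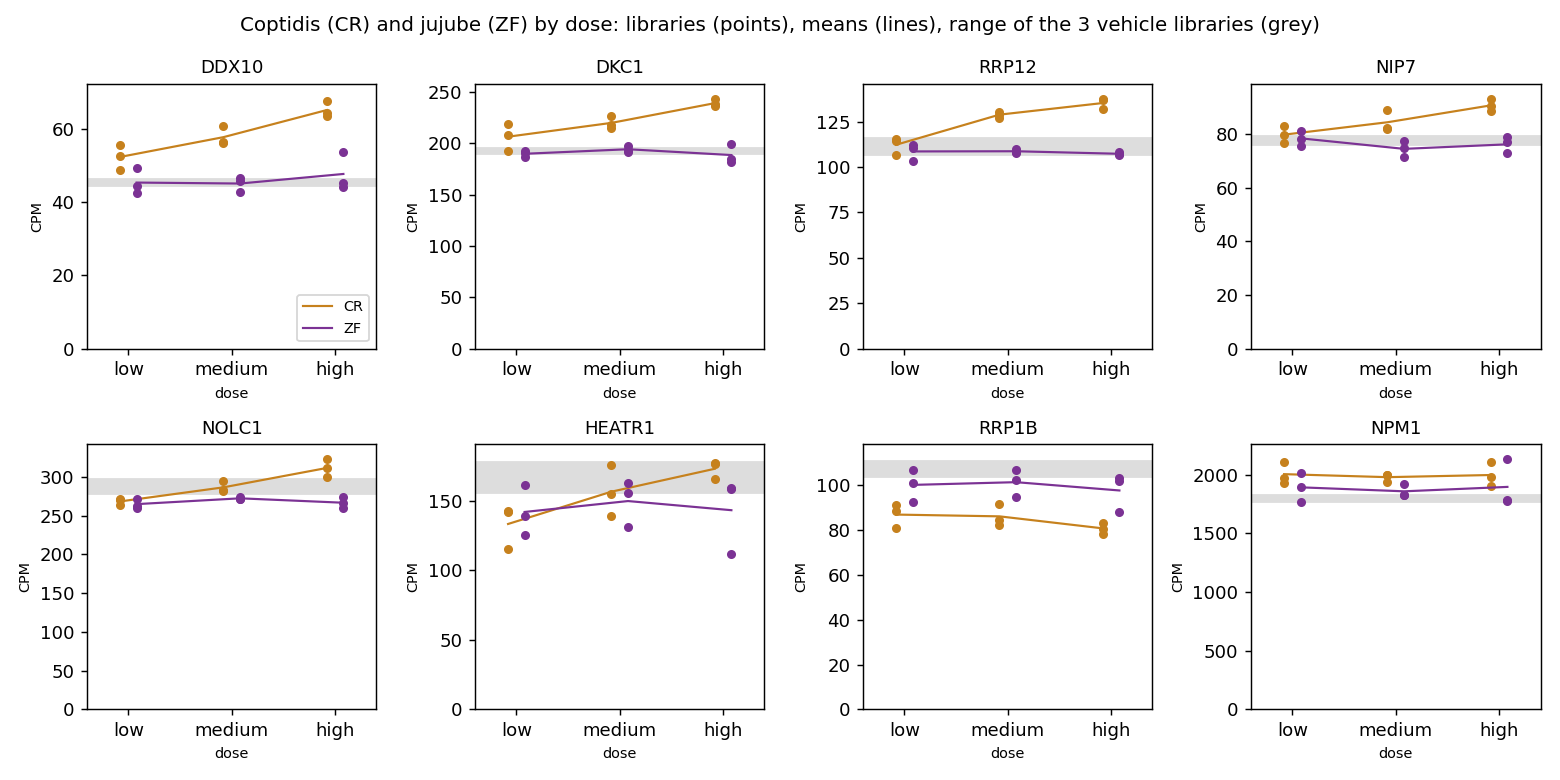
CPM of DDX10, DKC1, RRP12, NIP7, NOLC1, HEATR1, RRP1B and NPM1 at the low, medium and high dose of Coptidis Rhizoma and Zizyphi Fructus, 1 point a library, with the range of the vehicle libraries in grey. DDX10 climbs from 48.87 to 67.67 CPM over the Coptidis libraries while its high-dose Zizyphi libraries are at 44.22 to 53.74 CPM.

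Zizyphi Fructus gave no call at any dose with the filter used here. Against vehicle, edgeR called 0 members at high, medium and low dose, with 6, 2 and 4 at an unadjusted p under 0.05 and 0 by DESeq2, where 0.00584%, 0.0117% and 0.0117% of all genes passed. With no filter 2 were called at high and 2 at low dose. High against low dose gave 0 members, 0 at an unadjusted p under 0.05 and 0 by DESeq2 (0% of all genes). The high-dose replicates were spread more widely than vehicle, with a median coefficient of variation over members of 9.22%. DKC1 was at 181.4, 199.7 and 184.7 CPM and RRP12 at 106.4, 106.9 and 108.4 CPM in the high dose, both near the vehicle range.

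Pinelliae Tuber at high dose lowered 1 member (background 1.4% of all genes, 0.327% lower). This was NOLC1, at 263.8, 248.6 and 267.3 CPM (−0.13 ± 0.04; edgeR adjusted p = 0.0348), all below the lowest vehicle library (278.1 CPM). That separation was not particular to Pinelliae. For NOLC1, every Scutellariae and Zizyphi library at each dose also lay below all vehicle libraries, with high-dose Zizyphi at 260.5 to 273.8 CPM. The Pinelliae call was lost without vehicle replicate 1, vehicle replicate 2 or high-dose replicate 2, and with a length-slope term (−0.10; edgeR adjusted p = 0.0579). No member was called without the 5 libraries of lowest slope or with only the compared libraries, and 4 were with no filter. In the panel POLR1A was at −0.33, HEATR1 at −0.28 and FBL at 0.21, with no call. At medium and low dose edgeR called 0 members, with 1 each at an unadjusted p under 0.05 and 0 by DESeq2 (0.0175% and 0% of all genes). High against low dose gave 0, with 5 at an unadjusted p under 0.05 and 0 by DESeq2 (0.549% of all genes) and 3 called with no filter.

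For Zingiberis Rhizoma Recens, edgeR called 0 members against vehicle at high, medium and low dose, with 3, 8 and 14 at an unadjusted p under 0.05 and 1, 0 and 0 by DESeq2, beside 4.03%, 0.28% and 0.111% of all genes. These zeros depended on the fit: medium dose had 12 calls (9 higher) with only the compared libraries and 6 without the 5 libraries of lowest slope, medium and low dose had 3 and 6 with no filter, and high dose had 3, all lower, with a length-slope term (4.31% of all genes lower). Only the last of these counts has its share of all genes beside it. At high dose the panel members lay between −0.20 (POLR1A) and 0.05 (DKC1). High against low dose had 2 members that fell (5.26%), beside 4.17% of all genes passing and 1.7% lower. LAS1L was at 98.12, 97.14 and 97.54 CPM in high and 108.7, 107.5 and 111.3 CPM in low dose (−0.16 ± 0.04; edgeR adjusted p = 0.00802). NCL was at 1175, 1162 and 1163 CPM in high and 1272, 1313 and 1298 CPM in low dose (−0.15 ± 0.04; edgeR adjusted p = 0.0265). For both genes this low dose had the highest mean of the 20 groups. Vehicle and medium-dose means were 103.9 and 107 CPM for LAS1L, and 1200 and 1213 CPM for NCL. Both genes had tight replicates and no overlap between high and low dose. One of these calls was lost without any 1 of high-dose replicates 1, 2 or 3 or low-dose replicate 2, and both were lost without low-dose replicate 3; with the length slope they were at −0.15 each and passed, among 4 members that fell (3.92% of all genes lower), and with only the compared libraries fitted none passed.

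For Zingiberis Rhizoma, edgeR called 0 members against vehicle at high, medium and low dose, with 4, 9 and 2 at an unadjusted p under 0.05 and 1, 2 and 0 by DESeq2, beside 5.35%, 0.922% and 0.00584% of all genes. Here too the fit mattered: medium dose had 13 calls (9 higher) without the 5 libraries of lowest slope, 9 with only the compared libraries and 7 with no filter. The shares of all genes called in these fits are not given. High dose had 1 higher and 2 lower with a length-slope term (6.06% and 6.01% of all genes), and low dose had 3 calls with no filter. At medium dose POLR1A was at −0.40 and BOP1 at 0.23, the extremes of the panel, and at high dose POLR1A was at −0.13 and FBL at 0.09. High against low dose gave 0, with 4 at an unadjusted p under 0.05 and 1 by DESeq2 (4.64% of all genes), or 1 higher and 1 lower with a length-slope term (4.38% and 4.09%). The count became 1 for medium dose without its replicate 2 and 1 for high against low without low-dose replicate 2. The 2 ginger extracts at high dose, which differ in the form of the rhizome their names give, were compared directly: edgeR called 0 members, with 1 at an unadjusted p under 0.05 and 0 by DESeq2 (0.712% of all genes), and the median difference was −0.02. The low-to-high change differed between them for 0 members (edgeR; 4 at an unadjusted p under 0.05, 0 by DESeq2; 0.14% of all genes).

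Dose order followed these calls only in part. From low to medium to high dose the group mean climbed at each step for 15 members in Coptidis and dropped at each step for 7. In Scutellariae it dropped at each step for 21 members and climbed for 2. In the other extracts the larger of these counts was 12 of 38 in Zingiberis Rhizoma Recens (dropping), 11 in Pinelliae (dropping, with 10 climbing), 9 in Zingiberis Rhizoma (climbing) and 6 in Zizyphi (dropping). Dose order was not counted over all genes, and the members share the same libraries, so these counts are descriptions only. Medium against low dose gave 1 call, RRP12 in Coptidis (0.20 ± 0.04; edgeR adjusted p = 0.00412; 3.1% of all genes, 1.6% higher), which was lost without low-dose replicate 2 and with only the compared libraries fitted; with a length-slope term 5 members rose (4.4% of all genes higher). For the 2 ginger extracts in the order above, Pinelliae and Zizyphi, medium against low dose gave 0 in edgeR, with 2, 3, 0 and 0 at an unadjusted p under 0.05 and 0 by DESeq2, beside 0.0175%, 0.0292%, 0.0175% and 0% of all genes. For Zingiberis Rhizoma this became 11 calls (9 higher) without the 5 libraries of lowest slope, with no share of all genes given.

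Fold changes of the members were ordered by transcript length in some comparisons and not in others. Spearman's rho over the 38 members between fold change and longest-transcript length was −0.86 for medium-dose Zingiberis Rhizoma, −0.77 for low-dose Zingiberis Rhizoma Recens and −0.72 for low-dose Coptidis, all against vehicle. The same measure over 17007 genes was −0.44, −0.44 and −0.38. It was 0.06 for wortmannin (0.04 over all genes), −0.39 for high-dose Scutellariae (−0.15) and 0.57 for high against low dose of Coptidis (0.23). These are descriptions across genes that share libraries, and the part of length in each call was not tested beyond the fits with the slope term.

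**Figure D5:**
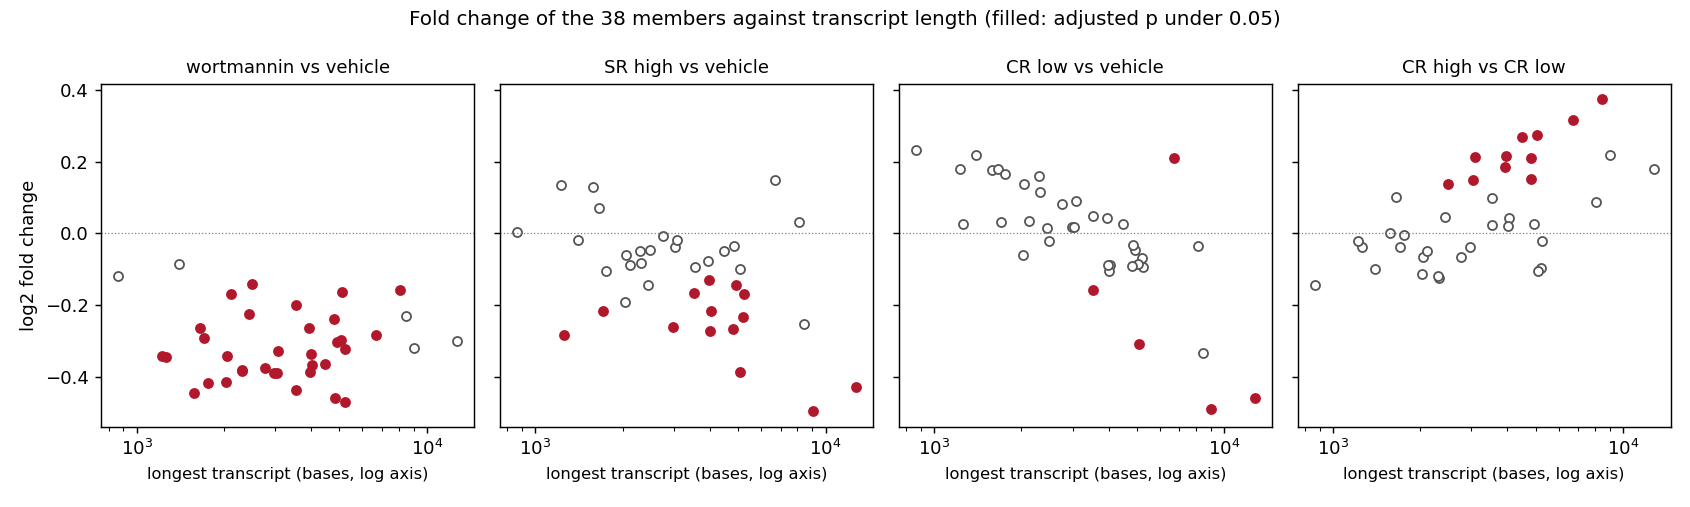
Log2 fold change of the 38 members against the length of the longest transcript (log axis, bases) for wortmannin and high-dose Scutellariae against vehicle, low-dose Coptidis against vehicle, and high against low dose of Coptidis. The wortmannin points are below 0 at every length, while the low-dose Coptidis points drop from short to long transcripts.

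Related lists, chosen with earlier results of these data known, show what moved beside the members. Of 83 other ribosome biogenesis factors tested, 60 fell and none rose with wortmannin (median −0.24). In the list for RNA polymerase I and its factors 6 of 12 fell, and 5 of 11 snoRNP assembly factors, where 11.9% of all genes were lower. The initiation factor RRN3, which brings polymerase I to its promoter, fell by 0.22 ± 0.05 on the log2 scale with wortmannin (edgeR adjusted p = 0.000854), from a mean of 94.13 to 80.89 CPM. UBTF, the nucleolar factor that binds ribosomal DNA, had no call with wortmannin (−0.08; edgeR adjusted p = 0.134).

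In high-dose Scutellariae against vehicle, 24 of the 83 other factors fell and 4 rose (10.9% of all genes lower, 13% higher), and 22 fell and 5 rose against low dose (9.36% lower, 11.1% higher). FTSJ3, a methyltransferase of precursor RNA, had a mean of 104.7 CPM in vehicle, 105.2 CPM in low dose and 77.42 CPM in high dose (−0.43, edgeR adjusted p = 2.6e-12 against vehicle; −0.44 against low dose). GRWD1, CEBPZ and DDX52 fell as well, by 0.37, 0.34 and 0.28 against vehicle. Among polymerase I genes POLR1G and POLR1F fell, by 0.46 and 0.26, and UBTF fell by 0.29 (edgeR adjusted p = 7.15e-08) while RRN3 had no call (−0.07; edgeR adjusted p = 0.38). The H/ACA assembly factor SHQ1 fell by 0.34.

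In high-dose Coptidis against vehicle, 14 of the 83 rose and 12 fell, where 18.5% of all genes were higher and 16.7% lower. GNL2, a nucleolar GTPase of the large subunit, had a mean of 48.52 CPM in vehicle, 42.54 CPM in low dose and 33.88 CPM in high dose (−0.52 against vehicle, −0.33 against low dose). FTSJ3 and GRWD1 fell too (−0.33 and −0.23), and MAK16 rose (0.26). UBTF fell by 0.22 (edgeR adjusted p = 4.8e-06), and RRN3 had no call against vehicle (0.06; edgeR adjusted p = 0.351).

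MYC had no call with wortmannin and rose in both high-dose extracts. Its mean was 132.7 ± 4.62 CPM (SD, n = 3) in vehicle and 129.3 ± 1.65 CPM in wortmannin (−0.04; edgeR adjusted p = 0.604). It was 177.1 ± 5.11 CPM in high-dose Scutellariae, where it rose by 0.42 ± 0.05 on the log2 scale (edgeR adjusted p = 3.29e-10), and 183 ± 5.94 CPM in high-dose Coptidis, where it rose by 0.46 (edgeR adjusted p = 5.01e-12). Against the low dose MYC rose by 0.37 in Scutellariae (edgeR adjusted p = 5.86e-09) and by 0.21 in Coptidis (edgeR adjusted p = 0.000294). MXD4, a MYC antagonist, rose by 0.64 with wortmannin and by 0.65 with high-dose Coptidis; it was looked at in wortmannin after its value was seen. MXI1, another antagonist, rose by 0.48 in high-dose Scutellariae and 0.61 in high-dose Coptidis.

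Host genes of snoRNAs that encode no protein were also measured, as were CDKN1A and MDM2, a ubiquitin ligase that ribosomal proteins left outside ribosomes are known to bind. GAS5, a host gene known to be degraded with translation, had a mean of 128 CPM in vehicle, 110.5 CPM in wortmannin, 186.9 CPM in high-dose Scutellariae and 279.3 CPM in high-dose Coptidis. It rose in both extracts (0.55 and 1.13), as did ZFAS1 (0.92 and 1.59). In all, 7 of 12 host genes rose and 1 fell in high-dose Scutellariae, 9 rose and none fell in high-dose Coptidis, and 2 rose and 6 fell with wortmannin. Over all genes the shares higher and lower were 13% and 10.9%, 18.5% and 16.7%, and 13.4% and 11.9% in that order. CDKN1A, the cell-cycle inhibitor p21, had a mean of 111 CPM in vehicle, 114.5 CPM in wortmannin, 164.6 CPM in high-dose Scutellariae and 198.7 CPM in high-dose Coptidis. It rose in both extracts (0.57 and 0.84), as did MDM2 (0.40 and 0.32), and neither had a call with wortmannin (edgeR adjusted p = 0.531 for CDKN1A and 0.177 for MDM2).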

How the data were processed

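RNA of the A549 libraries was made into directional mRNA libraries read as paired 100-base reads, per the labels' protocols. Per the submitters' processing notes, the tools included RSEM 1.3.3, STAR 2.7.3a, Trim Galore 0.6.5 and FastQC 0.11.9, and the build was GRCh38. Annotation release and strand setting: not given in the sources used here. RSEM expected counts per gene were deposited by the authors; they are not normalized and were rounded to whole numbers here, and 209 other columns of the table were not used. Without a stated strand setting, overlapping genes and near-identical copies of NPM1, NCL or other members cannot be separated further.

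Identifiers were named from current Ensembl symbols (56558) or GENCODE 29 (438), and 3679 unnamed ones held 0.0681% of counts. edgeR 4.0.16 (R 4.3.3; TMM, filterByExpr by group, robust quasi-likelihood test, Benjamini-Hochberg over all 17129 genes) was fitted to all 60 libraries with 20 groups, leaving 40 residual degrees of freedom. CPM are TMM-scaled; standard errors are the fold change divided by the root of F. Alternatives were DESeq2 1.42.0, its size factors, no filter, the compared groups alone, a replicate block, each library left out and, added after seeing the data, a length-slope term and leaving out the 5 libraries with the lowest slopes; so were 9 of the 41 comparisons. On data simulated for wortmannin against vehicle (16759 genes), the test recovered 85% of 100 genes changed 1.5-fold and 96% of 100 changed 2-fold. It also called 10 genes that had not been changed. The simulation gave all genes the same spread and put in no differences in length slope between libraries. Every member's change with wortmannin was smaller than 1.5-fold, so recovery of changes of that size was not measured.

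The members and lists were chosen with earlier results of these data known. In wortmannin, each high dose against vehicle and each high against low dose, the genes named were up to 4 called members a direction with the smallest p, and a panel computed in all comparisons, of which the text prints those of the comparisons it describes: NCL, NPM1, FBL, DKC1, POLR1A, POLR1B, HEATR1, BOP1 and NOP16; of the related lists, genes called in both high-dose comparisons of an extract (up to 4 a list), MYC, UBTF and RRN3. Other genes named were chosen after their values were seen. Figures were drawn with matplotlib 3.10.9 in Python 3.11.15.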

Additional observations from a re-analysis of the deposited data

Results flagged for a closer look

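The change from low to high dose was compared between extracts under 1 code number by an interaction term in edgeR. Between Coptidis Rhizoma and Zizyphi Fructus it differed for 5 members, 13.2% of the 38, near the 11.4% of all genes that passed. With only the compared libraries fitted the count was 0, and with a length-slope term 13. The difference in log2 fold change, Coptidis minus Zizyphi, was 0.287 for RRP12 (edgeR adjusted p = 0.000991), 0.205 for NOLC1 (0.00271), 0.173 for DDX21 (0.0129), 0.227 for NIP7 (0.0177) and 0.222 for DKC1 (0.0234). The count of 5 was 2 without high-dose Zizyphi replicate 1 or high-dose Coptidis replicate 2, and 3 without low-dose Coptidis replicate 2, low-dose Zizyphi replicate 2 or high-dose Coptidis replicate 3.

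Between Scutellariae Radix and Pinelliae Tuber the low-to-high change differed for 7 members, 18.4% of the 38, where 11.3% of all genes passed. Scutellariae minus Pinelliae was −0.249 for LAS1L (edgeR adjusted p = 0.00123), −0.262 for NCL (0.00164), −0.285 for NOP56 (0.00511), −0.279 for RRS1 (0.00664), −0.248 for GNL3 (0.0139), −0.193 for TCOF1 (0.0219) and −0.285 for NPM1 (0.022). The count of 7 was 3 without high-dose Pinelliae replicate 2, one of the libraries with the lowest length slopes.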

How the results depend on the processing

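Counts of members called, against vehicle unless said, moved by more than 1.5 times as follows. With a length-slope term: 3 for Zingiberis Rhizoma Recens high, 3 for Zingiberis Rhizoma high, 25 for Scutellariae high, 23 for Coptidis high; against low dose 4, 2 and 20 for high-dose Zingiberis Rhizoma Recens, Zingiberis Rhizoma and Scutellariae and 5 for medium-dose Coptidis; 13 and 7 for medium and low Coptidis against Zizyphi; 20 for high Scutellariae against Pinelliae; and 13 and 14 for the interactions of Coptidis with Zizyphi and Scutellariae with Pinelliae. Without the 5 libraries of lowest slope: 1 and 6 for high and medium Zingiberis Rhizoma Recens, 2 and 13 for Zingiberis Rhizoma, 0 for Pinelliae high, 22 and 14 for Coptidis, 1 for high against low Zingiberis Rhizoma Recens, 11 for medium against low Zingiberis Rhizoma, 0 for low Coptidis against Zizyphi. With only the compared libraries fitted: 1 and 12, 2 and 9 for high and medium of the 2 ginger extracts, 0 for Pinelliae high, 22 and 12 for Coptidis, 0 for high against low Zingiberis Rhizoma Recens and medium against low Coptidis, 8 and 0 for high and low Coptidis against Zizyphi, and 0 for the Coptidis interaction. By DESeq2: 1, 1 and 2 for Zingiberis Rhizoma Recens high and Zingiberis Rhizoma high and medium, 8 for Coptidis low and 1 for high against low Zingiberis Rhizoma. With no filter: 3 and 6 for medium and low Zingiberis Rhizoma Recens, 7 and 3 for medium and low Zingiberis Rhizoma, 4 for Pinelliae high, 2 each for Zizyphi high and low, 3 for high against low Pinelliae, 4 for medium Coptidis against Zizyphi and 3 for the Coptidis interaction. The cause of these moves was not tested. The share of all genes called is not set beside these counts, except for some length-slope fits above.

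Leaving out 1 library at a time gave 29 to 32 calls for wortmannin, 8 to 13 for Scutellariae high, 11 to 13, 4 to 5 and 1 to 6 for Coptidis high, medium and low, 0 to 1 for Zingiberis Rhizoma medium and for Pinelliae high, 7 to 11 and 7 to 12 for high against low Scutellariae and Coptidis, 0 to 2 and 0 to 1 for the 2 ginger extracts and 0 to 1 for medium against low Coptidis. It gave 11 to 14, 5 to 8 and 0 to 4 for Coptidis against Zizyphi at high, medium and low dose, 9 to 12 for Scutellariae against Pinelliae, 20 to 25 and 32 to 34 for wortmannin against Scutellariae and Coptidis, and 2 to 6 and 3 to 8 for the Coptidis and Scutellariae interactions. Low Coptidis against Zizyphi went from 2 to 4 without low-dose Coptidis replicate 1 and turned to 1 call, higher, without replicate 2; medium Coptidis against Zizyphi went from 8 to 5 without medium-dose Coptidis replicate 2. With the length slope 6 named values, none of them called without it, changed sign: HEATR1 in Coptidis medium (0.124), NOP16 (−0.195) and POLR1B (0.130) in Coptidis low, NPM1 in high against low Coptidis (0.085), HEATR1 in wortmannin against Scutellariae (−0.154) and POLR1A in the Scutellariae interaction (−0.151).

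In 0 of 38 comparisons was every correlation between same-numbered libraries over 0.1, and in 2 each library correlated best with its own number. That rule cannot show whether libraries of the same number share a batch, and the replicate numbers are used here only to name libraries. With a replicate block 33 members were called for wortmannin, 14 for Scutellariae high and 14 for Coptidis high. Of 530 single-gene results, called or not, no filter added 40 calls and removed 50, the compared libraries alone added 25 and removed 34, the length slope 34 and 9, leaving out the 5 libraries 31 and 10, DESeq2 2 and 2.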
